A study of Mus musculus with 36 samples.

Results

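The cathepsin proteases examined here are 10 genes of the mouse left ventricle (Ctsa, Ctsb, Ctsc, Ctsd, Ctsh, Ctsk, Ctsl, Ctso, Ctss and Ctsz), taken by gene symbol from an mRNA table of 16415 genes. All 10 were in the table and all 10 passed the filter on low values used for testing, as did 12858 genes in all. Ventricles came from C57BL/6 male mice operated on at 8 weeks of age. Myocardial infarction (MI) was produced by a tie around the upper left anterior descending artery, which was not occluded in sham mice. Hearts were taken 1 day (early), 1 week (middle) or 8 weeks (late) after surgery, so that the groups were MI and sham at each stage, with 3 mRNA libraries per group and 18 in all. Each library was made from total RNA of pooled left ventricles with a TruSeq RNA kit. The labels do not state how many mice went into a library, so p-values here carry the spread among these libraries and no other.

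Cathepsins are proteases that mostly work in the acid lumen of lysosomes and endosomes. They are made as inactive precursors, tagged with mannose phosphate in the Golgi, carried to the endosome by mannose-phosphate receptors and activated there by removal of the propeptide. Most are cysteine proteases of the papain family (Ctsb, Ctsc, Ctsh, Ctsk, Ctsl, Ctso, Ctss and Ctsz), Ctsd is an aspartic protease and Ctsa is a serine carboxypeptidase. Outside the cell, cathepsins S, K and L can cut elastin or collagen, and cystatins restrain the cysteine enzymes. Macrophages hold large amounts of several of them, and in the heart they are known for the turnover of proteins in cardiomyocyte lysosomes and for the breakdown and rebuilding of matrix after infarction.

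Promoters are shown for the genes with the widest changes (Ctss and Ctsk), for Ctsc, whose change between MI and sham differed least between 1 day and 1 week, and for Ctsd, the most abundant member. They are RefSeq sequences of build GRCm38.p6, each running 250 bases before to 50 after an annotated start. The lines give Ctss at chr3:95526536-95526835 on the plus strand, Ctsk at chr3:95498960-95499259 on the plus strand, Ctsc at chr7:88277835-88278134 on the plus strand and Ctsd at chr7:142387778-142388077 on the minus strand, written 5′ to 3′. Capitals mark matches to an E-box (CACGTG) or to a PU.1-type motif (GAGGAAGT, in both promoters on the opposite strand).
Ctss: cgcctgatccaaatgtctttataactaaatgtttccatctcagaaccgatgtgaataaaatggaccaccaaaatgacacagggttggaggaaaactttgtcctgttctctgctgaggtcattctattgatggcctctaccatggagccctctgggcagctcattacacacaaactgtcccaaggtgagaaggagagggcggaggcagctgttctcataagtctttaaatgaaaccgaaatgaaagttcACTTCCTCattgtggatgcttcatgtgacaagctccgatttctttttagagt
Ctsk: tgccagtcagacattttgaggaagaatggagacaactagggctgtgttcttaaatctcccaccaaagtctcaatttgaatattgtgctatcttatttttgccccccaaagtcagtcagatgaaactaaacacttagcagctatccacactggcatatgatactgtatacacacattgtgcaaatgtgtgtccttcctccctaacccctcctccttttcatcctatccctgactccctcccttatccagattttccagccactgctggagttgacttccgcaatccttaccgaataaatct
Ctsc: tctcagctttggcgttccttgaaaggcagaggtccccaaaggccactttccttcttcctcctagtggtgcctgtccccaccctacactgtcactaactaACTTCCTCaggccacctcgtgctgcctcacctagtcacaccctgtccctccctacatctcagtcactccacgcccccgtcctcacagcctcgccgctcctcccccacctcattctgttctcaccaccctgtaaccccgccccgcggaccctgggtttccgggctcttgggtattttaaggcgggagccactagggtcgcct
Ctsd: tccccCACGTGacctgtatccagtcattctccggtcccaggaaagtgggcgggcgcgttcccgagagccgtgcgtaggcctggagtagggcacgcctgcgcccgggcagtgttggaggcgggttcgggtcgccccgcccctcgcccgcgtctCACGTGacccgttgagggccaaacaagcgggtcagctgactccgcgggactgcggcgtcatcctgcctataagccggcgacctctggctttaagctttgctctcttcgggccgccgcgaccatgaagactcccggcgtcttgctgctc
The PU.1-type match began 2 bases before the start in Ctss and 151 bases before it in Ctsc, and the E-boxes of Ctsd began 245 and 98 bases before the start. Motifs were searched on both strands in 9 promoters of 8 members, since Ctsa had a pair and Ctsb and Ctsh had none in the table. The PU.1-type motif was in 2 of the 9 and in 3.20% of all 32851 promoters of that length. The E-box was in 3 of the 9, in Ctsd, Ctsl and the second Ctsa promoter, and in 7.15% of all promoters. The longer palindromic CLEAR motif of lysosomal genes, which contains the E-box, was searched only as an exact sequence. That sequence was in 0 of the 9 and in 0.326% of all promoters. Forms that differ from it at any base were not searched, so CLEAR-type sites in these promoters are not excluded. The AP-1 motif (TGANTCA) was in 0 of the 9 and in 7.81% of all promoters. No other pair of these motifs overlapped. A match is only a run of letters in this window.

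Values are FPKM, fragments per kilobase of transcript scaled to the mapped fragments of the library, which are corrected for gene length and so can be compared between genes. The deposited files gave no read counts, so the depth behind each value is unknown. The sum of all FPKM in a library was 298162 to 403190. Median FPKM over all genes of the table was 3.09 to 5.59 in MI libraries and 2.38 to 2.83 in sham libraries. Changes are differences of log2(FPKM + 1), with their standard error (SE), fitted by limma in a single model of all 6 groups. A change was called at a Benjamini-Hochberg adjusted p below 0.05 over all 12858 tested genes. The added 1 understates the change of genes with low FPKM. Ratios are of group means in FPKM and carry no test.

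In MI hearts the cathepsins together were a larger part of the mRNA at each stage. Their summed FPKM was 811 ± 109 in MI and 610 ± 5.08 in sham hearts at 1 day, 3913 ± 336 in MI and 547 ± 31.1 in sham hearts at 1 week, and 1335 ± 367 in MI and 546 ± 24.0 in sham hearts at 8 weeks (mean ± s.d., n = 3). As a share of all FPKM in the library this was 0.258% against 0.192%, 0.994% against 0.172% and 0.354% against 0.177%, MI against sham in stage order. The sums were not tested.

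**Figure D1:**
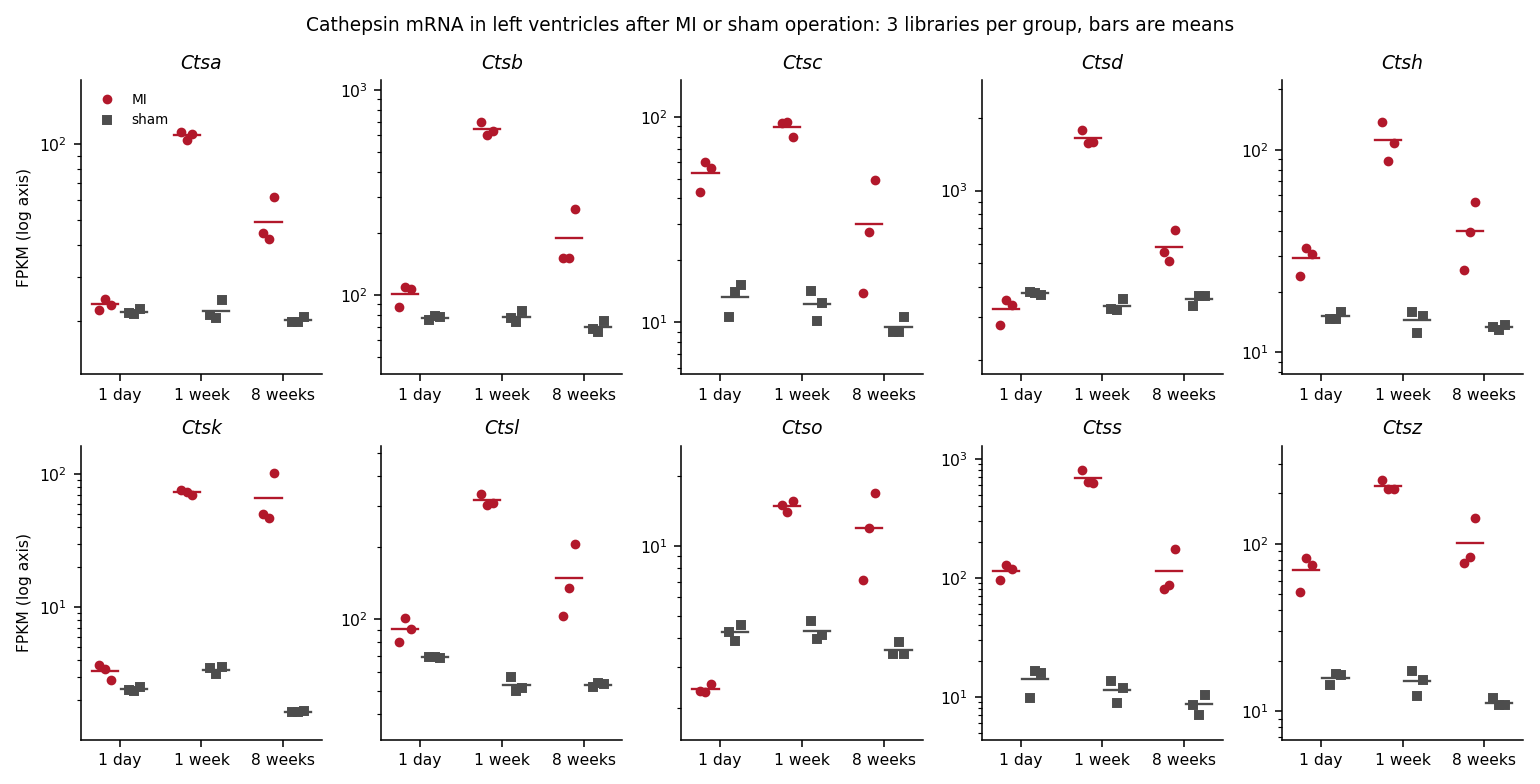
FPKM of the 10 cathepsin genes in each of the 18 libraries, with a log axis, by stage and with MI left of sham; points are libraries and lines are group means. Ctss at 1 week is at 623 to 807 FPKM in MI libraries against 8.85 to 13.7 in sham libraries, and the groups overlap only for Ctsa at 1 day.

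At 1 day after MI, 5 of the 10 cathepsins were called higher (Ctss, Ctsz, Ctsc, Ctsh and Ctsb) and 1 was called lower (Ctso). Among all tested genes 39.7% were called higher and 30.6% lower at that stage. At 1 week all 10 were called higher, where 72.8% of all tested genes were, and at 8 weeks again all 10, where 70.4% were. The median change of the members was 0.38, 2.81 and 1.42 in stage order, and that of all tested genes was 0.09, 0.79 and 0.52. The table as a whole was thus shifted towards MI at 1 week and 8 weeks. When the libraries were put on a common scale by quantile normalization, by median-ratio factors or by the authors' own normalized values, the share of all genes called higher was 34.2%, 39.6% and 34.1% at 1 day, with 42.0%, 36.9% and 41.9% lower. It was 41.3%, 47.5% and 41.2% at 1 week, with 39.7%, 34.8% and 39.6% lower, and 30.9%, 41.7% and 30.8% at 8 weeks, with 39.8%, 30.6% and 39.8% lower. Under those scalings all 10 cathepsins were still called higher at 1 week and 9 at 8 weeks (not Ctsd), with medians of 2.01 to 2.39 and 0.87 to 1.03. At 1 day 4 to 6 were called higher and 2 lower (Ctso and Ctsd).

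**Figure D2:**
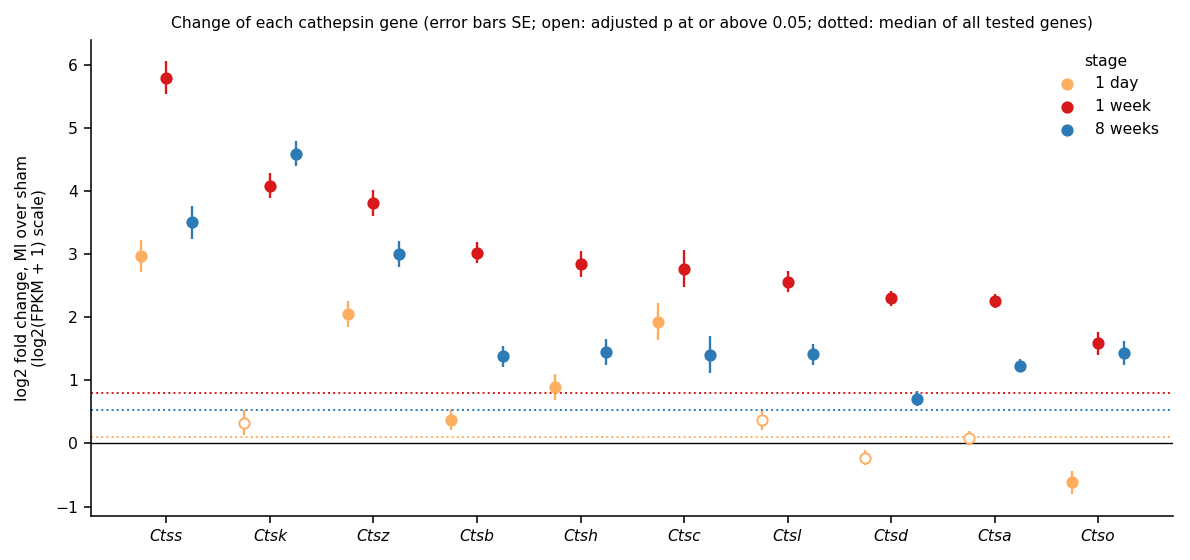
Change of each cathepsin, MI minus sham on the log2(FPKM + 1) scale, at the 3 stages; bars are standard errors from limma, open points are changes that were not called and dotted lines are the medians of all tested genes. Ctss has the widest change at 1 day and 1 week (2.97 and 5.80) and Ctsk at 8 weeks (4.59), while Ctsa at 1 day lies near 0 (0.09) and turns to between -0.08 and -0.02 under the other scalings.

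Ctss encodes cathepsin S, an endopeptidase that remains active at neutral pH and, in antigen-presenting cells, trims the invariant chain from MHC class II molecules. It stood highest among the members in its change at 1 day and 1 week. At 1 day Ctss was at 96.8, 129 and 119 FPKM in MI libraries, against 9.85, 16.6 and 15.7 FPKM in sham libraries. At 1 week Ctss was at 807, 637 and 623 FPKM in MI libraries, against 13.7, 8.85 and 11.9 FPKM in sham libraries. At 8 weeks Ctss was at 81.2, 87.6 and 173 FPKM in MI libraries, against 8.58, 6.99 and 10.4 FPKM in sham libraries. Every MI library was above every sham library at each stage, and the third MI library at 8 weeks was well above the other two. The change was 2.97 (SE 0.26, adjusted p = 4.92e-08), 5.80 (SE 0.26, adjusted p = 6.81e-11) and 3.50 (SE 0.26, adjusted p = 2.28e-08) in stage order, with ratios of 8.19, 60.1 and 13.2. Its change exceeded that of 97.83%, 99.87% and 99.29% of the tested genes, and at 1 week Ctss ranked 17 among them. In MI hearts it did not differ detectably between 8 weeks and 1 day (-0.09, adjusted p = 0.77).

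Ctsk encodes cathepsin K, the collagenase of osteoclasts, which can cut triple-helical collagen. It was the lowest member in each sham group and had its largest change late, though limma did not call that change different from the one at 1 week (0.51, adjusted p = 0.139). At 1 day Ctsk was at 3.68, 3.43 and 2.83 FPKM in MI libraries, against 2.40, 2.34 and 2.52 FPKM in sham libraries. At 1 week Ctsk was at 76.7, 73.9 and 69.8 FPKM in MI libraries, against 3.48, 3.13 and 3.56 FPKM in sham libraries. At 8 weeks Ctsk was at 50.6, 47.2 and 103 FPKM in MI libraries, against 1.62, 1.63 and 1.66 FPKM in sham libraries. The groups did not overlap at any stage, but at 1 day the change was small and was not called (0.33, SE 0.19, adjusted p = 0.141). At 1 week it was 4.08 (SE 0.19, adjusted p = 1.26e-10) and at 8 weeks 4.59 (SE 0.19, adjusted p = 1.21e-10), with ratios of 21.7 and 40.8. Among the alternative settings the adjusted p from limma at 8 weeks was at most 0.000315 for Ctsk and 0.000595 for Ctss. Ctsk ranked 26 among all tested genes at 8 weeks, and its change there exceeded that of 99.8% of them. Between 8 weeks and 1 week in MI hearts it was not called (-0.23, adjusted p = 0.307), nor was Ctso (-0.36, adjusted p = 0.0919), but without the third MI library at 8 weeks both were called lower (Ctsk -0.58, adjusted p = 1.61e-05; Ctso -0.63, adjusted p = 0.000751). Ctsk and Ctss are neighbours on chromosome 3 (GRCm38.p6, 95499210 to 95509387 and 95526786 to 95556405, both on the plus strand), and Ctss starts 17399 bases after the end of Ctsk. Their time courses were unlike: Ctsk FPKM per Ctss FPKM was 0.0295, 0.108 and 0.584 in MI hearts from the early to the late stage, against 0.182, 0.303 and 0.194 in sham hearts.

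The exopeptidases Ctsz, Ctsc and Ctsh were all called higher at every stage. Ctsz encodes cathepsin Z (also called X), which removes single residues from the carboxyl end. At 1 day Ctsz was at 51.4, 82.8 and 74.6 FPKM in MI libraries, against 14.3, 16.6 and 16.3 FPKM in sham libraries. At 1 week Ctsz was at 241, 213 and 212 FPKM in MI libraries, against 17.5, 12.2 and 15.4 FPKM in sham libraries. At 8 weeks Ctsz was at 76.8, 83.3 and 143 FPKM in MI libraries, against 12.0, 10.9 and 10.8 FPKM in sham libraries. No MI library overlapped a sham library, and the changes were 2.05 (SE 0.20, adjusted p = 2.09e-07), 3.81 (SE 0.20, adjusted p = 3.12e-10) and 3.01 (SE 0.20, adjusted p = 1e-08).

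Ctsc encodes cathepsin C, or dipeptidyl peptidase I, which activates the serine proteases of neutrophil, mast cell and cytotoxic lymphocyte granules. At 1 day Ctsc was at 43.1, 60.2 and 56.5 FPKM in MI libraries, against 10.7, 14.0 and 15.1 FPKM in sham libraries. At 1 week Ctsc was at 93.0, 93.9 and 79.6 FPKM in MI libraries, against 14.2, 10.2 and 12.4 FPKM in sham libraries. At 8 weeks Ctsc was at 13.8, 27.5 and 49.2 FPKM in MI libraries, against 8.94, 8.95 and 10.6 FPKM in sham libraries. The groups were apart at each stage, though at 8 weeks the lowest MI library came close to the highest sham library and the MI libraries were spread widely. The changes were 1.93 (SE 0.29, adjusted p = 2.36e-05), 2.77 (SE 0.29, adjusted p = 2.37e-07) and 1.40 (SE 0.29, adjusted p = 0.000459). Ctsc was the only member called lower in MI hearts at 8 weeks than in MI hearts at 1 day (-0.96, adjusted p = 0.00865), and the only one whose change against sham was not called different between 1 week and 1 day (0.84, adjusted p = 0.0812). Ctsh encodes cathepsin H, an aminopeptidase. It was at 24.0 to 32.7 FPKM in MI against 14.7 to 15.9 FPKM in sham libraries at 1 day, 88.2 to 138 in MI and 12.5 to 15.9 in sham at 1 week, and 25.6 to 55.1 in MI and 12.9 to 13.6 in sham at 8 weeks, with no overlap. Its changes were 0.90 (SE 0.21, adjusted p = 0.0012), 2.84 (adjusted p = 4.8e-09) and 1.45 (adjusted p = 1.51e-05).

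Ctsb and Ctsl encode broadly used lysosomal endopeptidases. Cathepsin B also removes dipeptides from the carboxyl end, and mice without cathepsin L develop a dilated cardiomyopathy. At 1 day Ctsb was at 87.8, 109.9 and 107 FPKM in MI libraries, against 75.7, 78.5 and 78.2 FPKM in sham libraries. At 1 week Ctsb was at 697, 602 and 628 FPKM in MI libraries, against 77.1, 73.4 and 83.6 FPKM in sham libraries. At 8 weeks Ctsb was at 151, 152 and 264 FPKM in MI libraries, against 68.0, 65.7 and 74.9 FPKM in sham libraries. All MI libraries were above all sham libraries. The change was 3.02 (SE 0.16, adjusted p = 3.36e-10) at 1 week and 1.38 (SE 0.16, adjusted p = 2.15e-06) at 8 weeks. At 1 day it was 0.38 (SE 0.16, adjusted p = 0.0482), close to the threshold, and was not called under quantile normalization (adjusted p = 0.189) or in the authors' normalized values (adjusted p = 0.199), nor without any of the 3 sham libraries or without the second or the third MI library of that stage (adjusted p = 0.0832 to 0.147). Ctsl was at 79.8 to 101 FPKM in MI against 68.6 to 69.4 FPKM in sham libraries at 1 day, 303 to 335 in MI and 49.8 to 56.8 in sham at 1 week, and 103 to 208 in MI and 52.0 to 53.9 in sham at 8 weeks. The groups did not overlap, and the change was not called at 1 day (0.38, SE 0.17, adjusted p = 0.0566) but was 2.56 (adjusted p = 1.78e-09) and 1.41 (adjusted p = 2.58e-06) at the later stages.

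Ctso encodes cathepsin O, a cysteine protease about which less is known. At 1 day Ctso was at 2.37, 2.34 and 2.54 FPKM in MI libraries, against 4.27, 3.89 and 4.57 FPKM in sham libraries. At 1 week Ctso was at 15.0, 14.0 and 15.6 FPKM in MI libraries, against 4.77, 3.98 and 4.15 FPKM in sham libraries. At 8 weeks Ctso was at 7.10, 12.0 and 16.9 FPKM in MI libraries, against 3.43, 3.85 and 3.41 FPKM in sham libraries. All MI libraries were below sham at 1 day and above sham later. The changes were -0.62 (SE 0.19, adjusted p = 0.00753), 1.59 (SE 0.19, adjusted p = 6.86e-07) and 1.44 (SE 0.19, adjusted p = 5.29e-06).

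Ctsd and Ctsa are the members that are not cysteine proteases. Ctsd encodes cathepsin D, the main aspartic protease of lysosomes, and was the most abundant member in every group. At 1 day Ctsd was at 279, 353 and 338 FPKM in MI libraries, against 382, 378 and 371 FPKM in sham libraries. At 1 week Ctsd was at 1785, 1569 and 1587 FPKM in MI libraries, against 323, 320.1 and 355 FPKM in sham libraries. At 8 weeks Ctsd was at 558, 509.7 and 685 FPKM in MI libraries, against 332, 366 and 368 FPKM in sham libraries. All MI libraries were below sham at 1 day and above it later, and the change at 1 day was not called (-0.23, SE 0.12, adjusted p = 0.0977). It was 2.30 (SE 0.12, adjusted p = 2.34e-10) at 1 week and 0.71 (SE 0.12, adjusted p = 6.4e-05) at 8 weeks. The call at 8 weeks was lost under quantile normalization (0.25, adjusted p = 0.0859), median-ratio factors (0.12, adjusted p = 0.315) and the authors' normalized values (0.26, adjusted p = 0.0789), under which Ctsd was instead called lower at 1 day (-0.35, -0.34 and -0.31). Ctsa encodes cathepsin A, a carboxypeptidase that also protects lysosomal beta-galactosidase and neuraminidase. It was at 22.1 to 24.6 FPKM in MI against 21.4 to 22.4 FPKM in sham libraries at 1 day, 104 to 112 in MI and 20.5 to 24.2 in sham at 1 week, and 42.2 to 61.9 in MI and 19.8 to 20.8 in sham at 8 weeks. Only the libraries at 1 day overlapped, where the change was 0.09 (SE 0.11, adjusted p = 0.486). It was 2.25 (adjusted p = 1.61e-10) at 1 week and 1.23 (adjusted p = 1.4e-07) at 8 weeks.

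Counted by libraries, all 3 MI libraries were above all 3 sham libraries for 7 members at 1 day, where 45.4% of tested genes were, for 10 at 1 week (74.8%) and for 10 at 8 weeks (66.3%). At 1 day 2 members, Ctsd and Ctso, had all MI libraries below all sham libraries, as had 35.9% of tested genes.

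The change between MI and sham was then compared between stages in the same model. It was called higher at 1 week than at 1 day for 9 members, where 60.0% of tested genes were called higher in this difference (31.3% to 31.7% under the other scalings). The difference was 3.75 for Ctsk, 2.83 for Ctss and 2.65 for Ctsb. The change was called lower at 8 weeks than at 1 week for 8 members, where 29.9% of tested genes were called lower (24.1% to 30.1% under the other scalings). The difference was -2.30 for Ctss, -1.65 for Ctsb and -1.60 for Ctsd. The difference of -0.80 for Ctsz was not called in 5 fits with a library left out (adjusted p = 0.0651 to 0.0842). No call was made for Ctsk (0.51, SE 0.28, adjusted p = 0.139) or Ctso (-0.15, adjusted p = 0.657). The change was called higher at 8 weeks than at 1 day for 7 members, where 51.8% of tested genes were called higher (29.0% to 32.7% under the other scalings). The exceptions were Ctsc (-0.52, adjusted p = 0.283), Ctsh (0.56, adjusted p = 0.111) and Ctss (0.54, adjusted p = 0.21). These differences share libraries: the 1 week groups enter the first and the second, and the 1 day and 8 week groups enter the third as well.

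In MI hearts alone, 10 members were called higher at 1 week than at 1 day (63.0% of tested genes). Ctsc was not among them under quantile normalization (adjusted p = 0.0844), with median-ratio factors (0.606) or in the authors' normalized values (0.0859), nor without the first MI library at 1 day or the first or second at 1 week (0.0736 to 0.117). Between 8 weeks and 1 week 8 members were called lower in MI hearts (49.0%), and 10 without the third MI library at 8 weeks, which added Ctsk and Ctso. Between 8 weeks and 1 day 7 members were called higher (53.1%), of which Ctsz was not called under the other scalings (adjusted p = 0.0697 to 0.273) or without the first MI library at 1 day or the third at 8 weeks (0.198 and 0.224). With Ctsc, called lower, 8 members were called in either direction between 8 weeks and 1 day (71.1%). In sham hearts alone, limma called 0 of 10 members between any pair of stages, where it called 1.42% of tested genes between 1 week and 1 day, 0.848% between 8 weeks and 1 week and 2.77% between 8 weeks and 1 day. At an unadjusted p under 0.05 the counts of members were 1, 1 and 3. Sham libraries at 8 weeks were all below those at 1 day for 9 of 10 members, as for 41.5% of tested genes. For Ctsk the sham difference between 8 weeks and 1 week was -0.73 (adjusted p = 0.108), and it was called with a pseudocount of 0.1 (adjusted p = 0.0262) and under median-ratio factors (adjusted p = 0.0167).

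The make-up of the group of 10 changed with its size. In sham hearts the order of levels by FPKM began with Ctsd, Ctsb, Ctsl and Ctsa at every stage, with no overlap between these neighbours, and ended with Ctso and Ctsk. Between them Ctsz, Ctsh, Ctss and Ctsc did not all separate beyond their spread. In MI hearts at 1 week Ctsd was followed by Ctss and Ctsb, whose ranges overlapped, and then by Ctsl, Ctsz, Ctsh, Ctsa, Ctsc, Ctsk and Ctso, where only Ctsh and Ctsa overlapped. In MI hearts at 1 day the neighbours from Ctss down to Ctsc overlapped in turn, as did Ctsh and Ctsa, and at 8 weeks all neighbours below Ctsd did. Ctsd made up 39.9% of the summed FPKM in MI and 61.8% in sham hearts at 1 day, 42.1% in MI and 60.9% in sham at 1 week, and 44.7% in MI and 65.1% in sham at 8 weeks. The 8 cysteine cathepsins made up 57.2%, 55.1% and 51.6% of it in MI hearts in stage order, against 34.6%, 35.0% and 31.2% in sham hearts. Among them Ctss held 14.2%, 17.5% and 8.29% in MI, against 2.30%, 2.09% and 1.58% in sham hearts, and Ctsk held 0.417%, 1.88% and 4.85% in MI, against 0.397%, 0.620% and 0.300% in sham hearts. Ctsb held 12.5%, 16.4% and 14.0% in MI, against 12.7%, 14.3% and 12.7% in sham hearts. These shares are descriptions and were not tested.

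**Figure D3:**
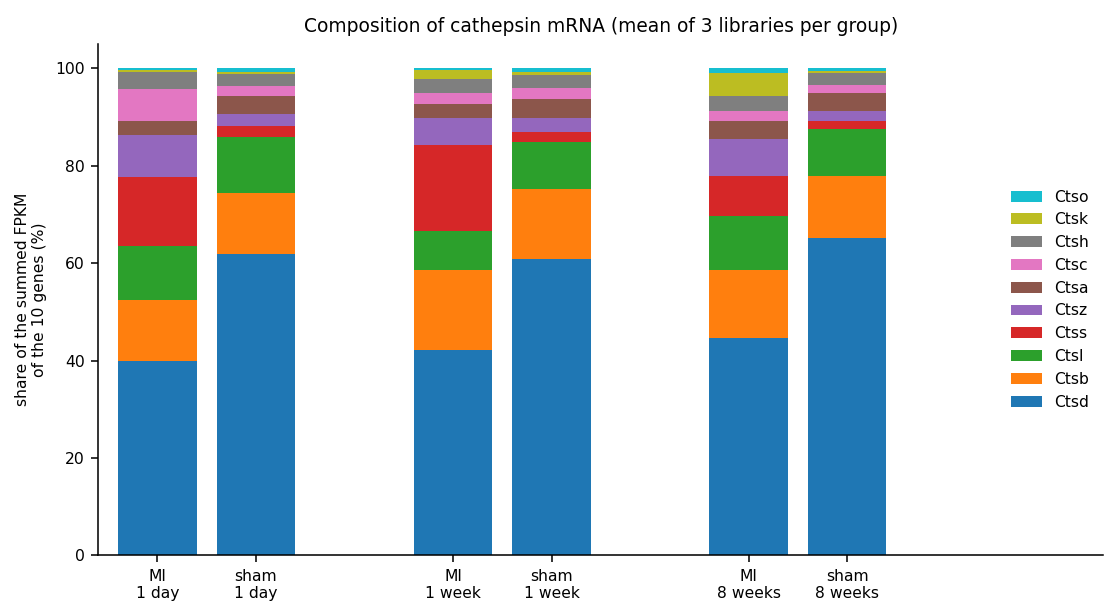
Share of each cathepsin in the summed FPKM of the 10 genes, in percent, as group means with MI left of sham at each stage. Ctsd is the largest part of every bar, at 39.9% to 44.7% in MI and 60.9% to 65.1% in sham hearts, and Ctss is widest in MI hearts at 1 week (17.5%).

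The spread within a group was not even. The third MI library at 8 weeks was the highest of its group for 10 of 10 members, as for 74.7% of tested genes, and the first MI library at 1 day was the lowest of its group for 8 members, as for 64.0%. The third MI library at 8 weeks also had the lowest summed FPKM of 12 cardiomyocyte markers in its group, 16120, and the highest of the adipocyte markers, 1328, against 21.6 and 315.8 in the other two and 27.6 to 34.3 in sham libraries of that stage. In the same library the summed FPKM of the skeletal muscle markers was 199.5, against 13.55 and 3.523 in the other two and 0.726 to 1.09 in sham libraries. The mesothelial markers summed to 200.4 there, against 13.3 and 26.3 in the other two and 0.924 to 1.35 in sham libraries, and the B cell markers to 26.2, against 5.61 and 8.71 in the other two and 0.733 to 1.04 in sham libraries. Without it, all 10 cathepsins were still called higher at 8 weeks, with changes of 0.59 for Ctsd, 0.97 for Ctsc, 3.16 for Ctss and 4.24 for Ctsk, and the change of Ctsc was then called lower at 8 weeks than at 1 day (-0.95, adjusted p = 0.0108). Its part in the results was not tested beyond leaving it out.

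Markers of ventricle cell types also differed between MI and sham hearts, but not all in step with the cathepsins. In bulk libraries a change in the number of cells of a type and a change in RNA per cell cannot be told apart. Summed FPKM of 11 macrophage markers was 228 to 412 in MI and 86.9 to 120 in sham libraries at 1 day, 1477 to 1658 in MI and 88.1 to 149 in sham at 1 week, and 299 to 754 in MI and 88.5 to 118 in sham at 8 weeks. Of these markers 5, 10 and 10 were called higher, and 1 was called lower at 1 week. At 1 day 6 were not called, and most of the rise of the sum was in Cd14, which averaged 159 FPKM in MI and 2.68 in sham hearts. For comparison with the counts here, 39.7%, 72.8% and 70.4% of all tested genes were called higher in stage order. The shares called lower were 30.6%, 16.5% and 10.6%. Summed FPKM of 10 neutrophil markers was 6489 to 10390 in MI and 59.7 to 84.9 in sham libraries at 1 day, but 50.5 to 78.7 in MI and 16.7 to 41.3 in sham libraries at 1 week, and 30.3 to 89.7 in MI and 8.30 to 20.0 in sham libraries at 8 weeks. Of the 9 that were tested, 9, 7 and 7 were called higher in stage order, but under the other scalings only 3 to 4 at 1 week and 1 to 6 at 8 weeks. At least Mmp9 among these passed the filter on low values only through MI libraries, so its calls are tied to the choice of genes. Of the sham libraries only the highest at 1 day (1.12 FPKM) reached 1 FPKM of Mmp9. Summed FPKM of 10 activated fibroblast markers was 208 to 253 in MI and 88.7 to 111 in sham libraries at 1 day, 14410 to 18290 in MI and 185 to 236 in sham at 1 week, and 707 to 3089 in MI and 70.8 to 73.5 in sham at 8 weeks, and 5, 10 and 10 of them were called higher and 1 lower at 1 day. The 12 cardiomyocyte markers, which check the labelled tissue, were all present and summed to 14500 to 17880 in MI and 39850 to 42830 in sham libraries at 1 day, 2879 to 9121 in MI and 42930 to 48260 in sham at 1 week, and 16120 to 38530 in MI and 45240 to 46780 in sham at 8 weeks, and 12, 12 and 8 of them were called lower. For the osteoclast list 5 markers were in the table, and Ocstamp, a gene of osteoclast fusion, was listed at 0 in the sham libraries at 1 week. Their sum was 56.7 to 104 in MI and 0.882 to 1.76 in sham libraries at 1 day, 29.0 to 36.1 in MI and 0.651 to 0.882 in sham at 1 week, and 17.0 to 56.9 in MI and 0.396 to 0.571 in sham at 8 weeks, and it includes Mmp9, which is also on the neutrophil list. Most of the early osteoclast sum in MI hearts was Mmp9, which averaged 73.7 FPKM there, beside 3.22 for Acp5 and 0.540 for Atp6v0d2. In the middle stage Mmp9 averaged only 2.24 FPKM in MI hearts, whereas Acp5 was at 21.8 and Atp6v0d2 at 7.99. The higher early sum thus follows Mmp9, and Acp5 and Atp6v0d2 had the opposite order between these stages. The part of the marked cell types in the cathepsin changes was not tested.

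**Figure D4:**
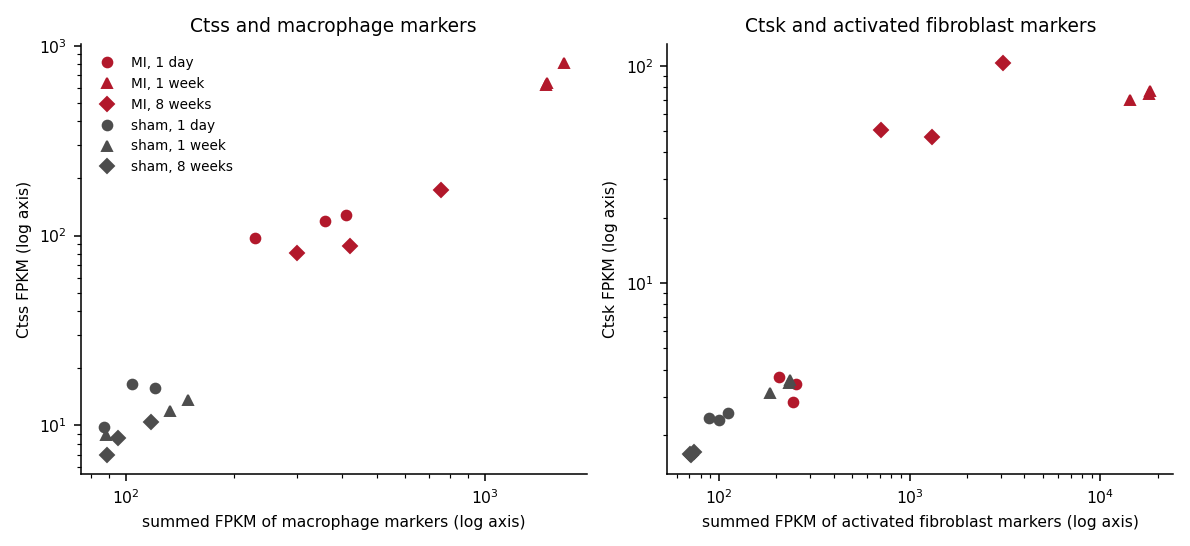
Ctss FPKM against the summed FPKM of macrophage markers (left) and Ctsk FPKM against that of activated fibroblast markers (right), with log axes and a point for each of the 18 libraries. MI libraries at 1 week lie at 1477 to 1658 FPKM of macrophage markers, against 88.1 to 149 in sham libraries, and the 208 to 253 FPKM of fibroblast markers in MI libraries at 1 day overlap the 185 to 236 of sham libraries at 1 week.

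The genes most like each cathepsin were sought by Pearson's r of log2(FPKM + 1) over the 18 libraries among 7139 genes. The 18 points share groups, so r is a description. Ctss was nearest to Cd68 (r = 0.9962), a lysosomal membrane glycoprotein of macrophages, and to Mpeg1 (0.9959), a pore-forming protein of phagocytes. Cd68 averaged 39.9 FPKM in MI and 6.57 in sham hearts at 1 day, 168 in MI and 4.98 in sham at 1 week, and 45.6 in MI and 3.65 in sham at 8 weeks. Ctsk was nearest to Slc50a1 (0.9961) and, of better known genes, close to Bgn (0.9896), the matrix proteoglycan biglycan. Ctsd was nearest to Psap (0.9881), the precursor of the saposins that assist lysosomal lipid breakdown, which averaged 271 FPKM in MI and 344 in sham hearts at 1 day, 1143 in MI and 323 in sham at 1 week, and 446 in MI and 315 in sham at 8 weeks. Between members, r was highest for Ctsa with Ctsb (0.99) and Ctss with Ctsz (0.9878) and lowest for Ctsc with Ctso (0.5142) and Ctsc with Ctsk (0.6567).

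Among the inhibitors of cysteine cathepsins, 8 of 15 listed genes were in the table and 5 passed the filter on low values (not Cst6, Cst7 and Fetub). Their median change was 2.65, 1.58 and 1.14 in stage order, with 0.80 to 0.98 at 1 week and 0.59 to 0.64 at 8 weeks under the other scalings. At each stage 4 of these were called higher, though not the same 4 and only 3 late under the other scalings, and 1 was called lower at 1 day. The shares of all tested genes called higher were 39.7%, 72.8% and 70.4% in stage order. Cst3, the secreted inhibitor cystatin C, was the one called lower at 1 day (-0.64, adjusted p = 0.000536). It averaged 366 FPKM in MI and 569 in sham hearts at 1 day, 1374 in MI and 547 in sham at 1 week, and 1910 in MI and 442 in sham at 8 weeks, so that it was highest late, where the MI means of all 10 cathepsins were highest at 1 week. Cstb, the cytosolic inhibitor stefin B, had changes of 2.65, 2.97 and 2.28, and Ctla2a, which resembles a cathepsin propeptide, of 3.05, 1.58 and 1.14. Stfa2l1, a stefin-like gene, averaged 168 FPKM in MI and 0.169 in sham hearts at 1 day (7.16, adjusted p = 6.42e-13) and was not called later. Stfa2l1 passed the filter on low values only through MI libraries. Ctla2b was called higher at 8 weeks (0.47, adjusted p = 0.0308), but its change lay between -0.17 and -0.03 under the other scalings. The summed FPKM of the inhibitors per FPKM of cysteine cathepsin was 1.72 ± 0.194 in MI and 2.87 ± 0.0940 in sham hearts at 1 day, 0.723 ± 0.0763 in MI and 3.03 ± 0.163 in sham at 1 week, and 2.96 ± 0.424 in MI and 2.76 ± 0.204 in sham at 8 weeks (mean ± s.d., n = 3). The ratio was below sham in MI hearts at 1 day and 1 week, and the groups at 8 weeks differed by less than their spread. Cst3 was the largest part of the inhibitor sum in each group, and listed inhibitors absent from the table are not in it. No test was made on this ratio.

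Of the cathepsins outside the 10, Ctse, Ctsf and Ctsw were tested, of which 2 were called higher and 1 lower early, 3 higher at the middle stage and 2 higher late. Under the other scalings 2 were called higher and 1 lower at the middle stage and 1 higher late. Ctse and Ctsw passed the filter on low values only through MI libraries, so their calls are tied to the choice of genes. Their highest sham values were 0.209 and 0.183 FPKM. Ctsf, a cysteine cathepsin found in many tissues, was called lower at 1 day (-1.81, adjusted p = 9.55e-09) and higher at 1 week (0.31, adjusted p = 0.0404), where its sign turned under the other scalings (-0.46 to -0.40). It averaged 3.16 FPKM in MI and 13.4 in sham hearts at 1 day, 18.1 in MI and 14.4 in sham at 1 week, and 19.9 in MI and 12.97 in sham at 8 weeks. Among 8 genes of cathepsin sorting and activation, the early stage had 3 called higher and 1 lower, the middle stage 8 and 0, and the late stage 7 and 1. Over all tested genes 39.7%, 72.8% and 70.4% were called higher at these stages. The median was 0.09 early, where it turned to between -0.17 and -0.01 under the other scalings, and 1.598 and 0.91 later, against 0.83 to 0.89 and 0.25 to 0.46 under those scalings, where 4 to 6 were called higher late. Lgmn, encoding legumain, which cuts several cathepsins during their maturation, had changes of 1.00, 3.20 and 1.50 and averaged 285 FPKM in MI and 30.0 in sham hearts at 1 week. Of the mannose-phosphate receptors, M6pr had changes of 0.89, 1.73 and 1.04, whereas Igf2r was called lower at 1 day (-0.67), higher at 1 week (1.51) and lower again at 8 weeks (-0.28, adjusted p = 0.0431).

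Beside the list counts below, 39.7%, 72.8% and 70.4% of all tested genes were called higher in stage order, and 30.6%, 16.5% and 10.6% lower. Of 29 other lysosomal hydrolases, 11 were called higher and 4 lower at 1 day (10 to 12 higher and 11 to 12 lower under the other scalings). Their median change of 0.23 turned to -0.02 under quantile normalization and in the authors' normalized values. At 1 week 28 were called higher and 1 lower, with a median of 2.51, and at 8 weeks 28 and 1, with a median of 1.54. Smpd1, the acid sphingomyelinase, was the one called lower at all 3 stages (-1.56, -1.02 and -0.48). Of 15 lysosomal membrane genes, the early stage had 4 called higher and 4 lower, the middle stage 15 and 0, and the late stage 14 and 0. Under the other scalings 7 to 9 were called lower early and 13 and 10 called higher at the later stages. Cd63, a tetraspanin of late endosomes, had changes of 1.35, 2.95 and 1.90, and Lamp1, a main glycoprotein of the lysosomal membrane, was called lower at 1 day (-0.30, adjusted p = 0.0414) and higher later (1.50 and 0.86). Of 18 genes of the V-ATPase, the proton pump that acidifies lysosomes, 10 were called higher and 3 lower early. The middle stage had 16 and 1 and the late stage 13 and 0, where the late count was near the share of all tested genes. Under the other scalings 4 to 6 were called lower at both later stages. Acp5 among the hydrolases and Atp6v0d2 among the V-ATPase genes passed the filter on low values only through MI libraries, so their calls are tied to the choice of genes. Of 8 regulators of lysosomal genes, the early stage had 3 called higher and 5 lower and both later stages 5 and 2. The later counts called higher were below the shares of all tested genes, and the median turned negative at both later stages under the other scalings. Tfeb, a transcription factor of lysosomal genes, was called lower at 1 day (-0.30) and higher later (0.29 and 0.46), where its sign also turned under those scalings (-0.56 to -0.07).

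**Figure D5:**
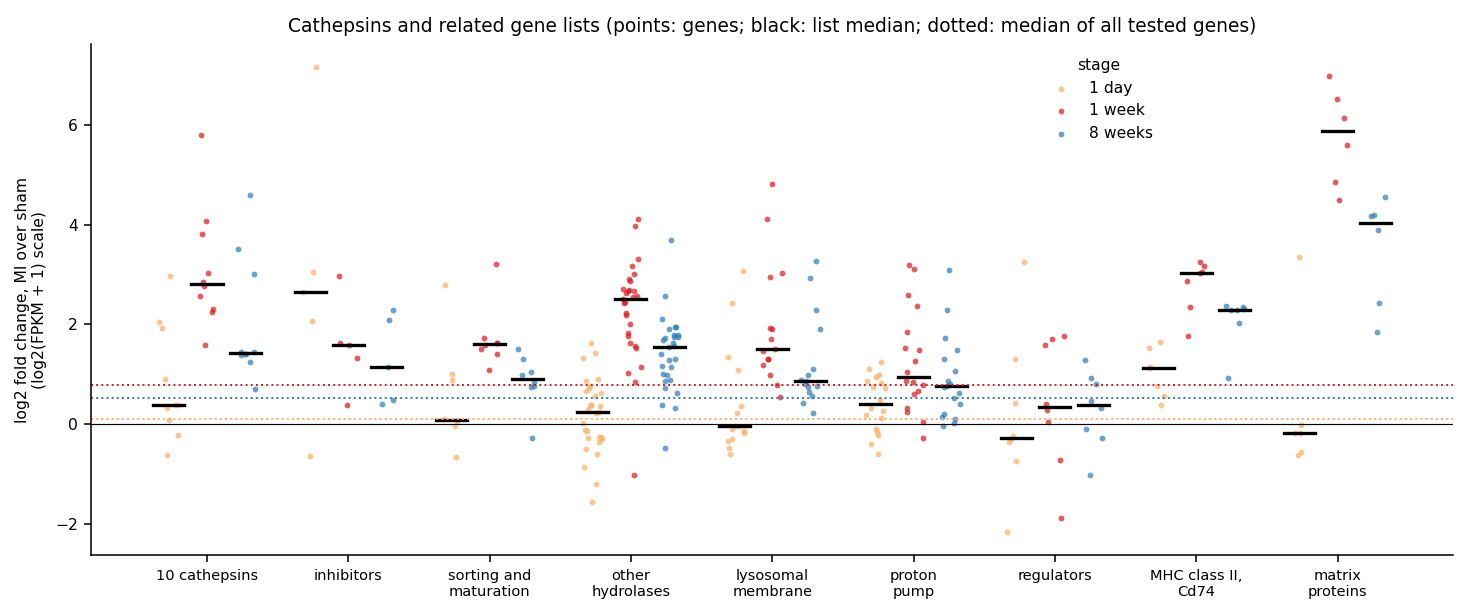
Changes, MI minus sham on the log2(FPKM + 1) scale, of the genes in each related list at the 3 stages, with a point per gene, the list median as a black line and the median of all tested genes as a dotted line. Medians at 1 week are 2.51 for hydrolases, 1.50 for membrane genes and 0.95 for the V-ATPase, against 0.79 for all tested genes, and the median of the regulators at 1 week (0.35) turns negative under the other scalings.

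Substrates and partners of single cathepsins were also listed, beside 39.7%, 72.8% and 70.4% of all tested genes called higher in stage order. Of 7 genes of MHC class II and its invariant chain, the chain that cathepsin S trims, 6 were called higher at 1 day and 7 at both later stages, with medians of 1.13, 3.04 and 2.28. Cd74, the invariant chain, had changes of 1.13, 3.06 and 2.31. Of 6 matrix genes, among them collagens that cathepsin K can cut, 1 was called higher at 1 day (Fn1, encoding fibronectin, 3.35) and 6 at both later stages, with medians of -0.19, 5.88 and 4.04. Col1a1, Col1a2, Col3a1 and Fn1 are also on the activated fibroblast list, so the results of these lists are not separate. Col1a1, a chain of type I collagen, had changes of -0.19, 6.52 and 4.17, the first of them not called.

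The position and overlap of genes bear on some values, since the strand setting of the counting is not stated. On GRCm38.p6 Ctsa (chromosome 2, 164832872 to 164841032, plus strand) overlaps the antisense genes Neurl2 and Pltp, with 2240 bases shared, and Ctsb (chromosome 14, 63122462 to 63145923, plus strand) shares 774 bases with antisense Fdft1. Neurl2 was called lower at each stage (-1.20, -1.05 and -0.36). Pltp, a phospholipid transfer protein, had changes of -1.09, 2.70 and 1.99, while Fdft1, of cholesterol synthesis, had -0.81, -0.71 and -0.20. Reads of Ctsa and Pltp from the shared bases cannot be told apart without strand, so the values of Ctsa are less certain than those of members without such a partner. Ctsz shares 12 bases with antisense Nelfcd, and Ctss shares 628 bases with the pseudogene Hmgb1-ps5 on its own strand. The other members lie on chromosome 7 (Ctsc and Ctsd), 9 (Ctsh), 13 (Ctsl) and 3 (Ctsk and Ctso) and overlap no other annotated gene.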

How the data were processed

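The authors aligned reads and computed deposited FPKM values. The submitters' processing notes name TopHat2 2.0.13, Bowtie2 2.2.3, Cufflinks 2.2.1 and mm10, and options, annotation and strand are not given in the sources used here. The authors also deposited log2(FPKM + 1) values after quantile normalization, used here as an alternative. The small RNA libraries were not used.

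Genes needed 1 FPKM or more in 3 or more libraries, which left 12858, and their log2(FPKM + 1) values were fitted with limma 3.58.1 (R 4.3.3, trend, 12 residual degrees of freedom) and tested after Benjamini-Hochberg adjustment. The procedure was tested on simulated data. Alternatives were a pseudocount of 0.1, no filter, a mean of at least 5 FPKM, 3 other scalings, each stage alone, a replicate block, no trend and leaving out each library. Depth is unknown. Members and lists were chosen with earlier results of these data known. Genes named from a list were among its 4 most abundant over all libraries, or among the 3 most like a member, and others named were chosen after their values were seen. Promoters came from RefSeq on GRCm38.p6.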

Additional observations from a re-analysis of the deposited data

Results flagged for a closer look

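The change between MI and sham was called different between stages by limma for most cathepsins, as a test of the difference itself in the model of all 6 groups. The values below are differences of log2 changes, later stage minus earlier stage, with adjusted p over all tested genes. Their causes were not tested.

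Between 1 week and 1 day the change was higher at 1 week by 3.75 for Ctsk (adjusted p = 3.17e-08), 2.83 for Ctss (6.3e-06), 2.65 for Ctsb (1.4e-07), 2.53 for Ctsd (1.37e-08) and 2.2 for Ctso (3e-06). It was also higher by 2.18 for Ctsl (1.28e-06), 2.16 for Ctsa (2.67e-08), 1.95 for Ctsh (3.11e-05) and 1.76 for Ctsz (5.97e-05).

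Between 8 weeks and 1 week the difference was -2.30 for Ctss (adjusted p = 0.000268), -1.65 for Ctsb (0.000117), -1.60 for Ctsd (1.82e-05) and -1.39 for Ctsh (0.00179). It was -1.36 for Ctsc (0.0149), -1.15 for Ctsl (0.00152), -1.02 for Ctsa (0.000211) and -0.80 for Ctsz (0.0315). That of Ctsz was not called in 5 fits with a library left out (adjusted p = 0.0651 to 0.0842).

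Between 8 weeks and 1 day the change was higher at 8 weeks by 4.26 for Ctsk (adjusted p = 1.01e-08), 2.05 for Ctso (7.84e-06), 1.15 for Ctsa (1.38e-05), 1.03 for Ctsl (0.00151), 1.00 for Ctsb (0.00139), 0.96 for Ctsz (0.00873) and 0.93 for Ctsd (0.000182).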

How the results depend on the processing

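Of 510 values of single cathepsins for MI against sham, and for its differences between stages, 488 kept their direction and side of the threshold under settings other than leaving out a library, as did 525 of 540 with a library left out. Comparisons within MI hearts are not in these counts: there Ctsc between 1 week and 1 day was not called under the other scalings, and leaving out libraries gave a range of 8 to 10 cathepsins called lower between 8 weeks and 1 week. Depth is unknown, so its limit on low genes such as Ctso and sham Ctsk could not be given. The causes of the changes below were not tested.

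Under quantile normalization, median-ratio factors and the authors' normalized values, in that order, all-gene counts called higher were 5311, 6110 and 5302 at the middle stage (9365 as reported) and 3976, 5358 and 3962 at the late stage (9056). Counts called lower were 5101, 4475 and 5097 at the middle stage (2124) and 5120, 3934 and 5118 at the late stage (1358). With a mean of at least 5 FPKM, which tests 7354 genes, the early stage had 3093 called higher and 2514 lower, the middle stage 5015 higher and the late stage 4888 higher. In the same 3 scalings 2, 2 and 2 cathepsins were called lower at 1 day against 1 as reported. Genes of the pathway lists called lower numbered 36, 32 and 36 early (19 as reported), 12, 13 and 12 in the middle stage (4) and 12, 14 and 12 late (4), with 2 late where each stage was fitted alone.

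The sign turned in those scalings for Ctsa at 1 day (-0.076, -0.022 and -0.081), Ctso between 8 weeks and 1 week (0.040, 0.080 and 0.040), Ctsf at 1 week (-0.40, -0.46 and -0.42), Ctla2b at 8 weeks (-0.17, -0.028 and -0.17) and Tfeb at 1 week (-0.55, -0.44 and -0.56) and 8 weeks (-0.14, -0.065 and -0.15).

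The change of Ctsk was called higher at 8 weeks than at 1 week, as 1 cathepsin against 0 as reported, with a pseudocount of 0.1 (0.77), under quantile normalization (0.59) and median-ratio factors (0.79), and without the second MI library at 8 weeks (0.71, adjusted p = 0.0397). Leaving out libraries gave a range of 0 to 1 for that count, and of 0 to 1 for cathepsins with a change called lower at 8 weeks than at 1 day, where Ctsc was called without the third MI library at 8 weeks. Median-ratio factors also called that 1 cathepsin. Ctsk in sham hearts was called lower at 8 weeks than at 1 week, as 1 cathepsin against 0, with a pseudocount of 0.1 and under median-ratio factors. For Ctso between 8 weeks and 1 week the range was -0.42 (without the third MI library at 8 weeks) to 0.15 (without the first). Ctsb at 1 day was not called without a filter (adjusted p = 0.0582) and in 5 fits with a library left out. Ctsz between 8 weeks and 1 week was not called without the first MI or second sham library of 1 week, or without the first or second MI or first sham library of 8 weeks (-0.76 to -0.64, adjusted p = 0.0651 to 0.0842). Ctsl at 1 day was called under median-ratio factors (adjusted p = 0.0351), with its stage alone (0.00332) and without the first MI library at 1 day (0.0403), Ctsk at 1 day with its stage alone (0.00997), and Ctsh between 8 weeks and 1 day without the first MI library at 8 weeks (0.84).

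The replicate numbers were not taken to pair the samples, and a check of this was not decisive. Same-numbered deviations correlated between -0.092 and 0.29, and samples correlated best with their own number in 5 of 9 cases. With the replicate block the early stage had 5094 genes called higher and 3919 lower, the middle stage 9362 and 2122, and the late stage 9024 and 1342, and the counts of cathepsins called were 5 higher and 1 lower, 10 and 0, and 10 and 0.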

Other observations

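Cathepsin C activates granule serine proteases, and 4 of these passed the filter on low values. Gzma, granzyme A of cytotoxic lymphocytes, was the 1 called higher early and the 1 called higher at the middle stage, and 3 were called higher late, Cma1, Mcpt4 and Tpsb2, which encode chymases and a tryptase of mast cells. Late, 2 to 3 were called higher under the other scalings, and 70.4% of all tested genes were called higher as reported. Gzma, Cma1 and Tpsb2 reached the 1 FPKM of the filter only in MI libraries, so their calls are tied to the choice of genes. Among sham libraries Mcpt4 reached it only in the highest at 1 week (1.07 FPKM), and among MI libraries only at 8 weeks. Mcpt4 therefore passed only through its MI libraries at 8 weeks, and its call there is tied to the choice of genes as well. Mcpt4 averaged 2.48 ± 2.12 FPKM in MI and 0.391 ± 0.0800 FPKM in sham hearts at 8 weeks (mean ± s.d., n = 3; change 1.16, SE 0.26, adjusted p = 0.000945), with MI libraries between 0.939 and 4.90 FPKM, and its change was -0.17 at 1 day and -0.23 at 1 week, neither of them called. Under quantile normalization and in the authors' normalized values Gzma was not called at the middle stage, and under all 3 other scalings Mcpt4 was called lower there (-0.73 to -0.53).

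Of the osteoclast genes beside Ctsk, Atp6v0d2, a proton pump subunit that takes part in osteoclast fusion, averaged 0.540 FPKM in MI and 0.0984 FPKM in sham hearts at the early stage, 7.995 in MI and 0.0353 in sham at the middle stage, and 7.97 in MI and 0.0466 in sham at the late stage. The changes were 0.49 (SE 0.12, adjusted p = 0.00232), 3.11 (SE 0.12, adjusted p = 2.53e-11) and 3.08 (SE 0.12, adjusted p = 8.06e-11), and MI libraries were at 6.25 to 9.41 FPKM at 8 weeks. Atp6v0d2 passed the filter on low values only through MI libraries, so these calls are tied to the choice of genes. Acp5, the tartrate-resistant acid phosphatase of osteoclasts and some macrophages, averaged 3.22 FPKM in MI and 0.362 FPKM in sham hearts early, 21.8 in MI and 0.306 in sham in the middle stage, and 18.4 in MI and 0.198 in sham late, where MI libraries spread between 6.59 and 36.7 FPKM. Acp5 was at most 0.448 FPKM in sham libraries and also passed the filter only through MI libraries. Of the other listed osteoclast genes, Ocstamp and Oscar did not pass it, and Dcstamp and Calcr were not in the table. Mmp9 is also on the neutrophil list.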
